A study of Mus musculus with 14 samples.

Results

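Kallikrein-related peptidases and their inhibitor in skin were followed through sorted epithelial stem cells and single epithelial cells of aged and young mice. The 10 genes were Klk5, Klk6, Klk7, Klk8, Klk9, Klk10, Klk11, Klk13 and Klk14, which encode serine proteases, and Spink5, which encodes the protease inhibitor LEKTI. They were taken by gene symbol from the 47729 genes counted in the RNA-seq files. Spink5 lies apart from the others on chromosome 18, from 43959545 to 44022487 (GRCm38.p6). Their expression by population and age, their promoter accessibility and their distribution over single cells are given in that order.

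Back skin came from female mice that were 24 months old (aged) or 2 months old (young). The strain is written as C57B8 in one field of the labels and as C57B6 in another. Epidermal stem cells (EpdSC) were sorted as lineage-negative cells with high integrin α6 that carried Sca1 and no CD34, and hair follicle stem cells (HFSC) as cells of the same kind that carried CD34 and no Sca1. RNA-seq covered aged EpdSC, young EpdSC, aged HFSC and young HFSC with 2 libraries each. ATAC-seq, which measures how open chromatin is to a transposase, covered the same groups with 1 library each. Droplet single-cell RNA-seq (10x) covered lineage-negative, integrin α6-positive epithelium with 1 library for each age. No group carried a transgene or a drug treatment in the labels, and the labels do not say whether cells of several animals were pooled.

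The outer skin surface is shed when proteases cut the corneodesmosomes, the junctions that hold cornified cells together. In this cascade, known best from human skin, the trypsin-like KLK5 activates itself, the chymotrypsin-like KLK7 and the trypsin-like KLK14, and these enzymes cleave corneodesmosin, desmoglein 1 and desmocollin 1. LEKTI, the product of Spink5, is released by differentiating keratinocytes and holds the kallikreins in check, and its loss causes Netherton syndrome, in which the barrier is shed too early. The genes are classically described in the granular layer and in the hair canal, above the basal cells where stem cells are sorted.

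RNA-seq libraries held 25126808 to 35905505 counts, and levels are given as CPM, the counts of a gene in 1000000 counts of a library after TMM scaling. The sorted cells matched their labels: Ly6a, which encodes Sca1, was at 133 to 218 CPM in EpdSC and at 0.399 to 1.97 CPM in HFSC, while Cd34 was at 0.34 to 1.81 CPM in EpdSC and at 1090 to 1810 CPM in HFSC. The granular layer was barely represented, with a summed level over 6 markers of 11 to 18 CPM in EpdSC and 3.06 to 11 CPM in HFSC. Cnfn and Lce1a1 of that list were at 0 in aged HFSC replicate 1, and Cnfn was also at 0 in aged EpdSC replicate 1. Nothing in the labels says that 2 libraries of a group are from different mice, and the spread behind each p-value may therefore be technical.

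The 9 kallikrein genes lie in 1 array on chromosome 7 (GRCm38.p6), all on the plus strand, in the order Klk14, Klk13, Klk11, Klk10, Klk9, Klk8, Klk7, Klk6 and Klk5, from 43680880 to 43851181. Klk12, which is not among the members, lies between Klk13 and Klk11. The promoters below are those of the 4 neighbours that differed most between the populations, Klk11, Klk10, Klk9 and Klk8, followed by that of Klk7, the next gene in the array, for contrast. They come from RefSeq (GRCm38.p6, plus strand) and run from 250 bases before the start site to 50 bases after it. Klk11 is shown at chr7:43774367-43774666, Klk10 at chr7:43780804-43781103, Klk9 at chr7:43791641-43791940, Klk8 at chr7:43797327-43797626 and Klk7 at chr7:43811044-43811343. Capitals mark CpG dinucleotides.
Klk11: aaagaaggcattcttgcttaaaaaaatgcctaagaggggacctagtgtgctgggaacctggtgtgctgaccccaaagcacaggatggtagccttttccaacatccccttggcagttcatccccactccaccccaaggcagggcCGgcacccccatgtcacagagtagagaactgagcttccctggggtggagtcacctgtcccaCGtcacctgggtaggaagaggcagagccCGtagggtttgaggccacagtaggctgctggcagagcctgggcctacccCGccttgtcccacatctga
Klk10: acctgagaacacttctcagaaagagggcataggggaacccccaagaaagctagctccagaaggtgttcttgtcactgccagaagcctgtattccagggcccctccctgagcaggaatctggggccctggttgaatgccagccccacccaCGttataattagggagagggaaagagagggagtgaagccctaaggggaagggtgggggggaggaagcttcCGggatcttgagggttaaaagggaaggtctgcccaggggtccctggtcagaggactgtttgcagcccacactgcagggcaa
Klk9: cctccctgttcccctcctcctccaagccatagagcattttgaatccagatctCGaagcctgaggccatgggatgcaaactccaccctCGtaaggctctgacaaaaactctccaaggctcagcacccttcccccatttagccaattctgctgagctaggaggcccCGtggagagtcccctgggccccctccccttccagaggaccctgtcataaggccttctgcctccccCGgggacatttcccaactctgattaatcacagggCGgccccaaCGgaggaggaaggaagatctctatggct
Klk8: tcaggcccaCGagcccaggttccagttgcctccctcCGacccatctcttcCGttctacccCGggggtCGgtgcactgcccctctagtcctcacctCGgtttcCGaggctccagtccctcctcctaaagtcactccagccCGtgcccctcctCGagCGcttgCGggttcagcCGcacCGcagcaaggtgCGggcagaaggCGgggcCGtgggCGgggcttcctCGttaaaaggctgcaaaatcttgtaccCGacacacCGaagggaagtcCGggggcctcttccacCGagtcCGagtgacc
Klk7: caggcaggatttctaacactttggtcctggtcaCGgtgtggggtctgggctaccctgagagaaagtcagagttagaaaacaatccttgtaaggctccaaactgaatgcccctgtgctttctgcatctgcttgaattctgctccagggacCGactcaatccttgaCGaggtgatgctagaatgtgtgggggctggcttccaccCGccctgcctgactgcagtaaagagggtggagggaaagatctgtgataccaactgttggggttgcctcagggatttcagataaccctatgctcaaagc

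Klk8 stood out in this set, with 23 CpG dinucleotides and a GC content of 65.3%. Klk11 and Klk7 had 4 each, Klk9 had 6 and Klk10 had 2. Over the 32851 promoters of the table the median was 7, and 21.5% of them held 23 or more. The other members with an entry, Klk5, Klk6, Klk13 and Klk14, held 0 to 8, so Klk8 alone of the 9 kallikreins had a CpG-rich promoter. Both strands of the 11 kallikrein promoters in the table were searched for 5 classical motifs. The core promoter motif TATAAA had no match in any of them, against 13.6% of all promoters. The same held for the AP-1 site TGACTCA, held by 5.2% of all promoters, and for the KLF site CACACCC, held by 8%. The GATA-factor site AGATAA was matched in Klk7 and Klk5, against 11.2% of all promoters, and the p53-family half-site was matched in Klk10, 204 to 195 bases before its start, and in Klk13, against 8.4% of all promoters. With only 11 promoters, these counts cannot be set apart from the shares over all promoters. The matches describe letters in the windows searched and nothing about binding.

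Which kallikreins differ between epidermal and hair follicle stem cells was asked first. Klk8, Klk9, Klk10 and Klk11, which are neighbours in the array, and Spink5 were higher in EpdSC at both ages, whereas Klk5, Klk6, Klk7 and Klk13 did not pass the test at either age. Klk14 was too low to test. Separation of libraries is also described below. With 2 libraries per group, genes without a population difference can separate too, and the share of all genes that did is not given here. The smallest of the called differences was that of Spink5 in aged mice, a log2 fold change of 0.95, and the largest that of Klk11 in young mice, 6.86.

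Klk11, a trypsin-like protease, had 58.7 and 65.2 CPM in aged EpdSC and 43.9 and 41 CPM in young EpdSC, against 1.91 and 2.73 CPM in aged HFSC and 0.366 and 0.354 CPM in young HFSC. No EpdSC library came near any HFSC library. The log2 fold change of EpdSC over HFSC was 4.73 ± 0.216 (SE, n = 2 libraries per group) in aged mice, with an adjusted p of 6.03e-08 in edgeR's quasi-likelihood test. In young mice it was 6.86 ± 0.267, with an adjusted p of 1.92e-08 in the same test. The young HFSC value rested on 9 and 11 reads, so the size of the young fold change is less certain than its direction.

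Klk10, whose protein is poorly characterised as an enzyme, had 27.3 and 28.8 CPM in aged EpdSC and 14.8 and 15.5 CPM in young EpdSC, against 2.58 and 6.98 CPM in aged HFSC and 3.83 and 3.46 CPM in young HFSC. The groups were again separate at both ages. The log2 fold change was 2.55 ± 0.358 in aged mice (edgeR, adjusted p = 0.000259) and 2.05 ± 0.36 in young mice (edgeR, adjusted p = 0.0012).

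Klk8, a trypsin-like protease also known from the nervous system, had 9 and 11.7 CPM in aged EpdSC and 5.56 and 11.7 CPM in young EpdSC. In HFSC it had 1.54 and 3.13 CPM in aged mice and 0.566 and 0.787 CPM in young mice. The young EpdSC libraries differed from each other, yet no EpdSC library overlapped an HFSC library. The log2 fold change was 2.15 ± 0.432 in aged mice (edgeR, adjusted p = 0.00332) and 3.68 ± 0.487 in young mice (edgeR, adjusted p = 0.000146).

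Klk9 had the fewest EpdSC reads of the called kallikreins, with 105 to 127 reads in EpdSC libraries and 7 to 40 reads in HFSC libraries. It had 3.8 and 3.45 CPM in aged EpdSC and 3.09 and 4.18 CPM in young EpdSC, against 1.34 and 0.23 CPM in aged HFSC and 1.17 and 0.472 CPM in young HFSC. The log2 fold change was 2.2 ± 0.668 in aged mice (edgeR, adjusted p = 0.0323) and 2.13 ± 0.667 in young mice (edgeR, adjusted p = 0.0352). This call was lost when libraries were scaled by their totals alone, with adjusted p of 0.0567 in aged mice and 0.0559 in young mice. It was also lost in aged mice without aged HFSC replicate 2 or without either aged EpdSC library, and in young mice without young HFSC replicate 2 or young EpdSC replicate 2, with adjusted p of up to 0.174.

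Spink5 had 60.3 and 40.9 CPM in aged EpdSC and 43.2 and 53.6 CPM in young EpdSC, against 27.6 and 24.6 CPM in aged HFSC and 16.7 and 24.7 CPM in young HFSC. The inhibitor was thus well expressed in both populations, and the EpdSC libraries all lay above the HFSC libraries. The log2 fold change was 0.95 ± 0.232 in aged mice (edgeR, adjusted p = 0.0104) and 1.23 ± 0.235 in young mice (edgeR, adjusted p = 0.00221). Without aged EpdSC replicate 1 the aged value was 0.68, with an adjusted p of 0.11, so in aged mice the call rests on that library.

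The main desquamation enzymes did not follow this pattern. Klk7 had 6.86 and 11.9 CPM in aged EpdSC and 2.18 and 8.72 CPM in young EpdSC, against 8.82 and 12.9 CPM in aged HFSC and 2.23 and 4.41 CPM in young HFSC, and the populations overlapped at each age. Its log2 fold change was -0.21 in aged mice, with a 95% interval of -1.38 to 0.96, and 0.72 in young mice, with an interval of -0.51 to 1.94. Klk5 had 5.78 and 4.72 CPM in aged EpdSC and 2.68 and 4.21 CPM in young EpdSC, against 2.52 and 4.11 CPM in aged HFSC and 0.965 and 1.93 CPM in young HFSC. The Klk5 populations did not overlap at either age, which can also happen without a difference. Its log2 fold changes of 0.66 (interval -0.26 to 1.58) and 1.26 (interval 0.29 to 2.22) did not pass (edgeR, adjusted p = 0.306 in aged mice and 0.0568 in young mice). DESeq2 called Klk5 in young mice, with an adjusted p of 0.0392.

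Klk6, a trypsin-like protease abundant in the nervous system, had 0 to 54 reads per library and Klk13 had 5 to 30. Their log2 fold changes had wide intervals, -2.98 to 1.78 for Klk6 and -2.21 to 1.81 for Klk13 in aged mice, and a difference was not detectable at this depth. Klk14 had 0 reads in all 4 EpdSC libraries, 2 and 3 reads in aged HFSC and 4 and 0 reads in young HFSC, and did not pass the filter on low counts.

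Counted together, 5 of the 9 tested members were called higher in EpdSC in aged mice and the same 5 in young mice, and none was called lower. Over all 21464 genes tested, 12.2% were called higher in aged mice and 13% in young mice. Without aged EpdSC replicate 1 the aged count was 3, with Klk8, Klk10 and Klk11 left. The plot of levels by library shows these values for all 10 genes.

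**Figure D1:**
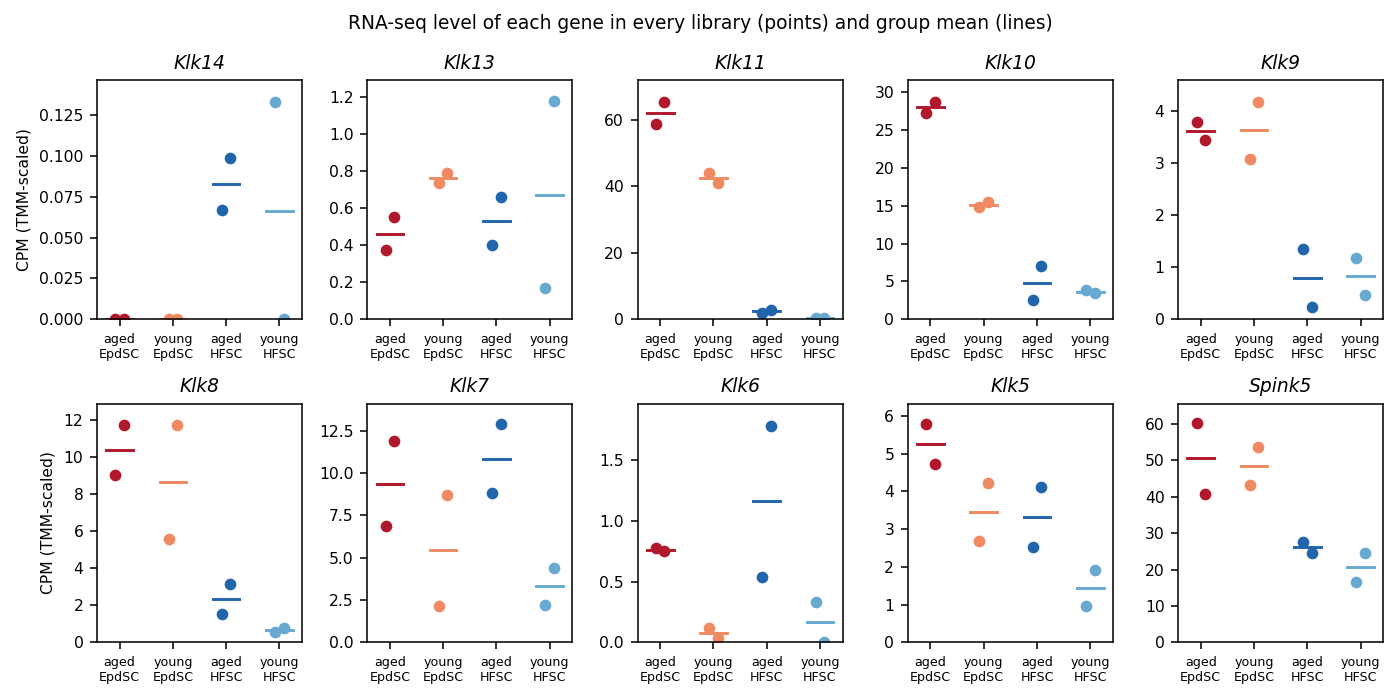
RNA-seq level in CPM (vertical axis, linear from 0 and scaled separately for each gene) of each gene in aged EpdSC, young EpdSC, aged HFSC and young HFSC; points are libraries and lines are means of 2. Klk11, Klk10, Klk9, Klk8 and Spink5 lie higher in every EpdSC library than in any HFSC library of the same age, whereas Klk7 overlaps, and Klk14 has no reads in EpdSC. With 2 libraries per group, genes without a difference can separate too.

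Whether the genes differ with age was asked within each population. In HFSC, Klk11 was higher in aged than in young mice, and no other member passed the test. Klk11 was at 1.91 and 2.73 CPM in aged HFSC, against 0.366 and 0.354 CPM in young HFSC, that is 57 and 83 reads against 11 and 9. The log2 fold change was 2.67 ± 0.291 (edgeR, adjusted p = 0.00706), and aged HFSC still had far less Klk11 than any EpdSC library. Of all genes tested, 0.368% were called in this comparison in either direction, beside 1 of the 9 tested members. The call held without any 1 of the 8 libraries, with an adjusted p of at most 0.0299, but was lost in a fit of the 4 HFSC libraries alone, with an adjusted p of 0.172.

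Klk5, Klk6, Klk7 and Klk8 also had every aged HFSC library above every young one, without passing edgeR's test over all genes. With 2 libraries per group, genes without an age difference can separate in this way too. The share of all genes that did is not given here. Klk6 rested on 16 and 54 reads in aged HFSC, against 10 and 0 in young HFSC. Klk8 had a log2 fold change of 1.79 ± 0.486 and Klk7 of 1.72 ± 0.561 (edgeR, adjusted p = 0.202 and 0.346). DESeq2 called both, with adjusted p of 0.0234 for Klk8 and 0.0493 for Klk7. At an unadjusted p under 0.05 in edgeR the members were Klk5, Klk6, Klk7, Klk8 and Klk11, 5 of 9, against 7.68% of all genes. Klk9, Klk10, Klk13 and Spink5 overlapped between the ages in HFSC, and the Spink5 interval was -0.18 to 0.85 on the log2 scale.

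Summed levels of markers of other compartments were compared between the HFSC ages as well. The summed level of 7 upper hair follicle markers was 1270 and 2000 CPM in aged HFSC, against 1020 and 1240 CPM in young HFSC, with Teddm3 at 0 in both young libraries. For 6 granular markers it was 8.01 and 11 CPM, against 3.06 and 4.41 CPM, and for 7 sebaceous gland markers 453 and 570 CPM, against 211 and 279 CPM. The 6 suprabasal markers overlapped between the ages, at 731 and 1060 CPM in aged HFSC, against 609 and 939 CPM in young HFSC, with Mt4 at 0 in young HFSC replicate 1. The 5 melanocyte markers summed to 32.1 and 32.6 CPM in aged HFSC, against 16.8 and 18.2 CPM in young HFSC. The 6 interfollicular basal markers summed to 7690 and 10400 CPM in aged HFSC, against 7330 and 7350 CPM in young HFSC. None of the 6 upper follicle, 6 suprabasal or 5 granular markers that were tested was called, and 1 of 7 sebaceous gland markers was called higher. The sort markers differed as well, with Ly6a at 1.51 and 1.97 CPM in aged HFSC, against 0.399 and 0.629 CPM in young HFSC, and Cd34 at 1090 and 1190 CPM, against 1810 and 1720 CPM. The part of these cells in the Klk11 difference was not tested. In bulk libraries, more cells of a type and more RNA per cell cannot be told apart.

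In EpdSC, 0 of the 9 tested members were called between ages by edgeR, and 0.0839% of all genes were. At an unadjusted p under 0.05 they were Klk6, Klk10 and Klk11, 3 of 9, against 4.46% of all genes, and DESeq2 called none. Klk6 rested on few reads, 25 and 23 in aged EpdSC, against 4 and 1 in young EpdSC. Klk10 had 27.3 and 28.8 CPM in aged EpdSC, against 14.8 and 15.5 CPM in young EpdSC, which gave 0.89 ± 0.335 on the log2 scale (edgeR, adjusted p = 1). Klk11 had 58.7 and 65.2 CPM, against 43.9 and 41 CPM, which gave 0.55 ± 0.177 on the log2 scale (edgeR, adjusted p = 0.872). The aged libraries lay above the young ones for both genes, and the summed level of 6 suprabasal markers was also higher in them, at 2770 and 3150 CPM in aged EpdSC, against 1810 and 1980 CPM in young EpdSC. So was that of 6 interfollicular basal markers, at 20400 and 21700 CPM, against 18600 and 15600 CPM, while 6 Langerhans and myeloid markers were lower, at 16.1 and 17.7 CPM in aged EpdSC, against 29.2 and 29.8 CPM in young EpdSC. The part of these cells in the values was not tested. Klk5 and Klk6 also had both aged libraries above both young ones, and Klk13 had both below. As in HFSC, genes without an age difference can separate in this way, and the share of all genes is not given. Spink5 was at 0.07 on the log2 scale with an interval of -0.44 to 0.57.

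Whether the age effect differs between EpdSC and HFSC was tested directly. The difference in log2 fold change, EpdSC minus HFSC, was -2.13 ± 0.347 for Klk11, with an adjusted p of 0.106 in edgeR, and 0 of 9 members were called, against 0.00466% of all genes. At an unadjusted p under 0.05 there were Klk8 and Klk11, 2 of 9, against 4.57% of all genes. DESeq2 called Klk11, with an adjusted p of 0.00183, and edgeR called it without aged HFSC replicate 1. Whether the Klk11 age effect differs between the populations thus depends on the test used. The plot of fold changes shows the populations and the ages side by side.

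**Figure D2:**
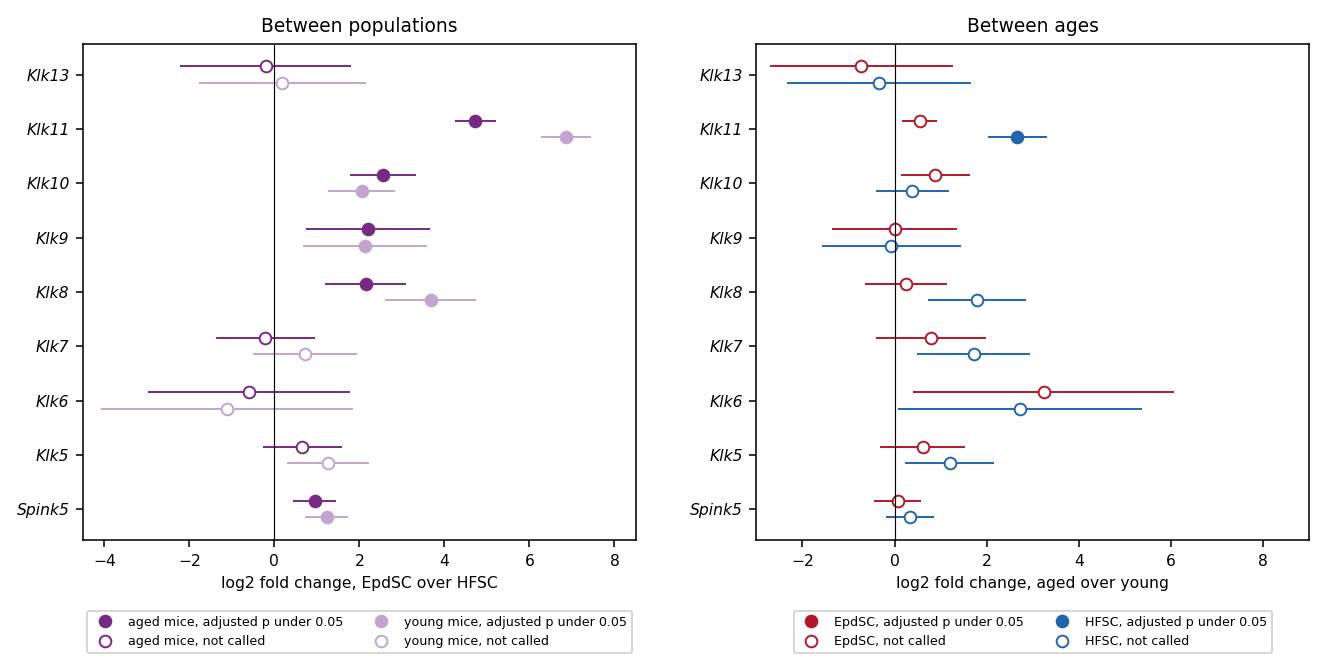
Log2 fold changes with 95% intervals for the 9 tested genes, as EpdSC over HFSC within each age (left) and aged over young within each population (right); filled points have an adjusted p under 0.05 in edgeR and open points do not. The 4 neighbours Klk11, Klk10, Klk9 and Klk8 and Spink5 are filled at both ages on the left, and only Klk11 in HFSC, at 2.67, is filled on the right.

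Genes of the same pathway were compared from lists chosen for their known roles, with earlier results of these data known. Of 21 tested corneodesmosome proteins and other kallikrein substrates, 10 were called higher and 0 lower in aged EpdSC against aged HFSC, and 9 higher and 1 lower in young mice, with a median log2 fold change of 0.53 and 0.56. The median over all genes was -0.091 in aged mice and -0.061 in young mice, 12.2% and 13% of all genes were called higher, and 11.9% and 13.1% lower. Dsg1a, a desmoglein 1 and thus a direct target of the cascade, averaged 1330 ± 258 CPM in aged EpdSC, against 94.3 ± 5.78 CPM in aged HFSC (SD, n = 2 each), which gave 3.82 ± 0.247 on the log2 scale (edgeR, adjusted p = 5.74e-07). F2rl1, which encodes the receptor PAR2 that kallikreins can switch on, was higher by 1.63 on the log2 scale at both ages (edgeR, adjusted p = 3.74e-05 in aged mice and 3.17e-05 in young mice). Dsg1b, Pkp1 and Dsg2 were also called higher at both ages. The gene called lower in young mice was Dsg3, the desmoglein of basal layers, at -0.65 (edgeR, adjusted p = 0.00592). No gene of this list was called between ages in either population by edgeR, and Pkp1 came nearest, at 0.93 in HFSC (edgeR, adjusted p = 0.0524).

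Of 18 tested activating and other barrier proteases, 6 were called higher and 3 lower in EpdSC at each age, against 24.1% of all genes called in either direction in aged mice and 26.1% in young mice. Tmprss4, a membrane serine protease, averaged 63.9 ± 5.14 CPM in aged EpdSC, against 5.67 ± 1.24 CPM in aged HFSC, or 3.49 ± 0.375 on the log2 scale (edgeR, adjusted p = 3.29e-05). Tmprss13, Casp14, the caspase of cornification, Plau, the urokinase plasminogen activator, and Ctsh, a cathepsin, were higher at both ages. Hpn, which encodes hepsin, was lower, at 0.659 ± 0.495 CPM in aged EpdSC, against 9.43 ± 0.862 CPM in aged HFSC (edgeR, adjusted p = 9.09e-05). Prss8, which encodes the channel-activating protease prostasin, was also lower in EpdSC, at -0.91 in aged mice and -1.07 in young mice on the log2 scale (edgeR, adjusted p = 0.00325 and 0.00105). Plau was called between ages in HFSC, at 15.8 ± 3.1 CPM in aged HFSC, against 4.75 ± 0.435 CPM in young HFSC, or 1.73 ± 0.222 on the log2 scale (edgeR, adjusted p = 0.0117).

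Other protease inhibitors of skin were called in both directions. Of 14 tested, 1 was called higher and 2 lower in EpdSC at each age, a share near the 24.1% of all genes called in aged mice and 26.1% in young mice, with a median log2 fold change of -0.54 in aged mice and 0.12 in young mice. Spink2, a relative of Spink5, averaged 1.85 ± 0.538 CPM in aged EpdSC, against 10.9 ± 1.19 CPM in aged HFSC (SD, n = 2 each), a fall of 2.56 on the log2 scale (edgeR, adjusted p = 4.91e-05). Spint1, an inhibitor of matriptase, was higher in aged EpdSC by 0.54 (edgeR, adjusted p = 0.0251). In young mice Cstb, a cystatin, was higher by 0.78 and Serpinb6c, a serpin, was at -3.15 (edgeR, adjusted p = 0.0353 and 0.0142). Cst6, which encodes cystatin M/E, an inhibitor of cysteine proteases of the cornification pathway, was lower in aged EpdSC at -1.17 (edgeR, adjusted p = 0.025). It was at 52.8 ± 23.3 CPM in aged HFSC, against 14.9 ± 3.77 CPM in young HFSC, without passing the test between ages (edgeR, adjusted p = 0.053). Among 17 other kallikrein genes only 2 passed the filter on low counts, and Klk12, the neighbour of Klk11, was called higher in young EpdSC, at 1.3 ± 0.0288 CPM in young EpdSC, against 0.135 ± 0.143 CPM in young HFSC (edgeR, adjusted p = 0.015).

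The genes whose levels followed Klk11 most closely over the 8 RNA-seq libraries, among 10314 genes of 5 CPM or more on average, were Wnt5a, with a Pearson r of 0.998, and Wnt3a, Tmem45a and Def6, each with 0.997. Wnt5a and Wnt3a encode secreted Wnt ligands. For Spink5 they were Fam172a at 0.987, Zfp947 at 0.985, BC052040 at 0.98 and Acadsb at 0.979. The 8 libraries share 2 populations, and any gene with a large population difference resembles Klk11 in this measure.

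Whether chromatin at the array differs between the populations was read from ATAC-seq counts in windows of 500 bases. The array was more open in EpdSC. Over 181 kb around the 9 genes, it held 271 CPM in aged EpdSC and 231 CPM in young EpdSC, against 91.3 CPM in aged HFSC and 106 CPM in young HFSC. Windows of 1 CPM or more numbered 50 in aged EpdSC and 45 in young EpdSC, against 9 in aged HFSC and 17 in young HFSC. The number of such windows in the genome is not given for each library, so these counts alone do not set the array apart. With 1 library per group there is no replicate check, and the intervals given cover counting error only. The libraries held 22934060 counts in aged EpdSC, 37325365 in young EpdSC, 8243922 in aged HFSC and 26170665 in young HFSC, and ATAC-seq CPM are scaled by these totals alone. The aged HFSC library was the shallowest, and the median log2 ratio over all promoters was 0.98 in aged mice and 0.05 in young mice, against which the ratios below are to be read.

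Klk11 and Klk9 showed the widest gaps at a start site. The windows within 500 bases of its first start site held 13.7 CPM in aged EpdSC and 10.9 CPM in young EpdSC, against 0.728 CPM in aged HFSC and 0.688 CPM in young HFSC, or 314 and 406 counts against 6 and 18. The log2 ratio was 4.12 in aged mice (95% interval 3.1 to 5.69) and 3.95 in young mice (3.3 to 4.75), above 99.7% and 99.9% of all promoters. At its second start site, within the gene, the ratio was 3.36 in aged mice and 2.87 in young mice. The first of these sites is the Klk11 promoter shown above, with 4 CpG dinucleotides.

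Klk9 had 11.2 CPM in aged EpdSC and 10.4 CPM in young EpdSC, against 1.21 CPM in aged HFSC and 0.65 CPM in young HFSC, with log2 ratios of 3.14 and 3.96. The highest window of the whole array was centred at -640 bases from that start, at chr7:43791001-43791500, with 20.8 CPM in aged EpdSC and 17.6 CPM in young EpdSC, against 1.09 CPM in aged HFSC and 0.688 CPM in young HFSC. Klk8, with the CpG-rich promoter, had 7.19 CPM in aged EpdSC and 6.32 CPM in young EpdSC, against 1.58 CPM in aged HFSC and 1.41 CPM in young HFSC, and a log2 ratio of 2.14 at both ages. Klk10 had the highest HFSC level of this block, with 17.9 CPM in aged EpdSC and 16 CPM in young EpdSC, against 3.28 CPM in aged HFSC and 5.69 CPM in young HFSC. Its log2 ratios were 2.42 in aged mice and 1.48 in young mice.

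The member start sites on both sides of this block were less accessible. Klk7 held 1.74 CPM in aged EpdSC and 1.07 CPM in young EpdSC, against 0.243 CPM in aged HFSC and 0.382 CPM in young HFSC, and Klk5 held 1.09 and 1.07 CPM, against 0.364 and 0.573 CPM. Both Klk6 starts and Klk14 were at 0.535 CPM or below in all 4 libraries. Windows away from start sites were also higher in EpdSC outside the block. That at chr7:43821001-43821500, before Klk6, held 3.58 CPM in aged EpdSC and 3.24 CPM in young EpdSC. In HFSC it held 0.728 CPM in aged mice and 0.115 CPM in young mice. Upstream of Klk13 lay an open region shared by the populations. Its window centred at -2316 bases from the start, chr7:43710001-43710500, held 10.1 CPM in aged EpdSC and 7.64 CPM in young EpdSC, against 3.76 CPM in aged HFSC and 10.7 CPM in young HFSC. Klk13 RNA was at 0.166 to 1.18 CPM in all 8 RNA-seq libraries.

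Of the 12 member start sites, 8 had the 20 counts needed for a ratio in aged mice and 11 in young mice. In aged mice 6 were 4-fold or more higher in EpdSC, against 7.58% of all promoters with enough counts, and in young mice 4 were, against 3.33%. The aged sites were those of Klk7, Klk8, Klk9, Klk10 and both of Klk11, and the young ones those of Klk8, Klk9 and both of Klk11. With the aged ratios centred on the median of all promoters, 3 sites were left, those of Klk9 and Klk11. Of 50 windows in the array with 1 CPM or more in either aged library, 36 were 4-fold or more higher in EpdSC, against 23.2% of such windows in the genome. In young mice 20 of 47 were, against 17.1%. None was 4-fold lower at either age, but the filter limits what this shows. All 50 aged windows and 45 of the 47 young ones reached 1 CPM in EpdSC. The highest aged HFSC window of the array held 3.76 CPM. A window 4-fold lower in EpdSC was therefore not possible in aged mice, and the aged count has no meaning for direction. The plot of ATAC counts across the array shows these windows.

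**Figure D3:**
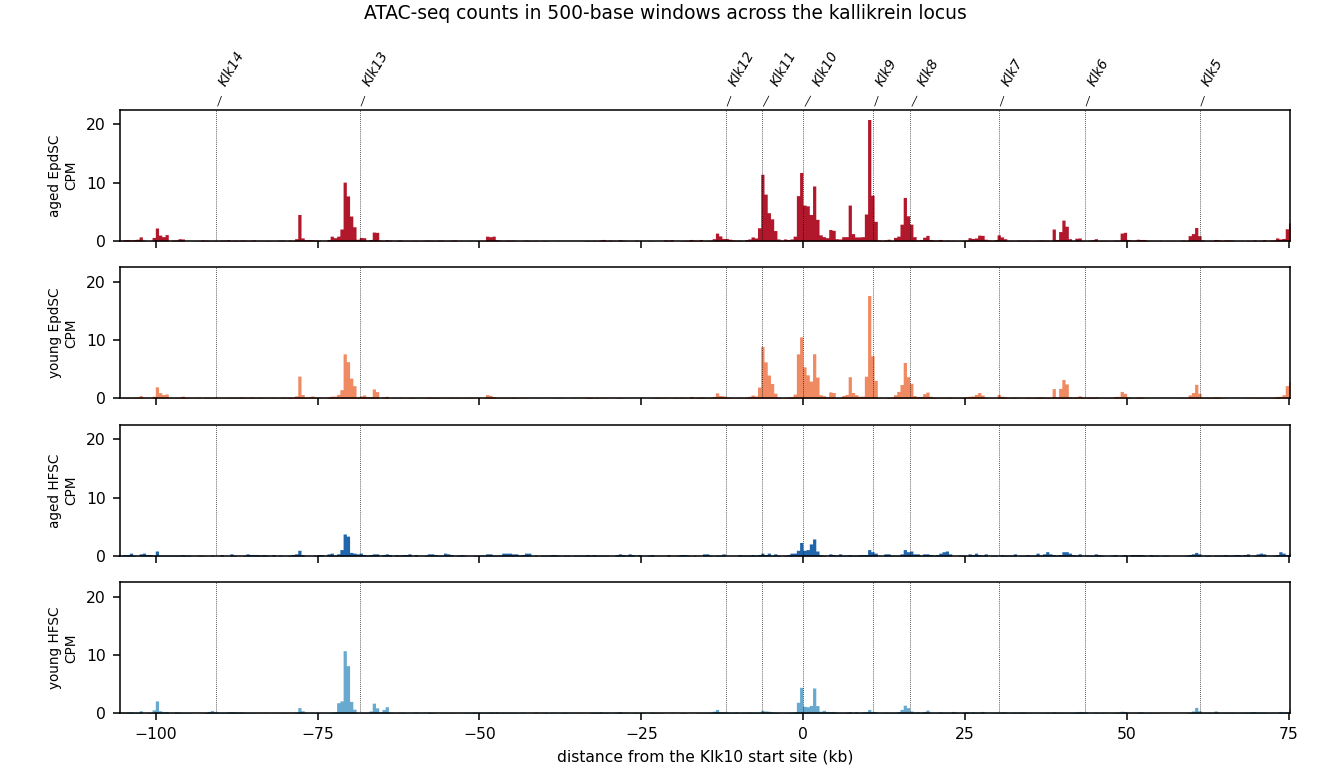
ATAC-seq CPM in 500-base windows (vertical axis) against the distance from the Klk10 start site in kb (horizontal axis), with 1 track for each of aged EpdSC, young EpdSC, aged HFSC and young HFSC; dotted lines mark start sites. The peaks from Klk11 to Klk8 are higher in both EpdSC tracks than in the HFSC tracks, which still reach 2.91 CPM (aged) and 4.47 CPM (young) around Klk10, while the region before Klk13 reaches 3.76 CPM or more in all 4.

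Between ages, 10 of the 12 member start sites in EpdSC and 5 of the 12 in HFSC had enough counts for a ratio. None of these reached 4-fold in EpdSC, where 0.167% of all promoters with enough counts did, or in HFSC, where 1.04% did. With too few counts in HFSC, Klk13 was at 2.11 on the log2 scale (7 aged and 5 young counts) and Klk14 at -2.98 (0 and 12). In EpdSC the Klk11 ratio of aged over young was 0.33 on the log2 scale (interval 0.11 to 0.55) and the Klk10 ratio 0.16 (interval -0.02 to 0.35), beside a median of 0.1 over all promoters. In HFSC the first Klk11 start had 6 counts in the aged library and 18 in the young one, a log2 ratio of 0.16 with an interval of -1.54 to 1.48. The median over all promoters in that comparison was -0.81.

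Spink5 had open windows that differed from one another in pattern. The reference gives its ends without a strand or a list of start sites, so the end with more ATAC counts was taken as the start, and which of the windows below holds the promoter in use is not known. Around that end the windows held 0.349 CPM in aged EpdSC and 0.375 CPM in young EpdSC, against 0.849 CPM in aged HFSC and 1.15 CPM in young HFSC, or 8 and 14 counts against 7 and 30. In the window centred 3706 bases into the gene there were 6.93 CPM in aged EpdSC and 6.51 CPM in young EpdSC, against 0.849 CPM in aged HFSC and 1.68 CPM in young HFSC. At 1206 bases the young libraries had the other order, with 2.6 CPM in young EpdSC, against 8.9 CPM in young HFSC, while the aged ones had 1.79 CPM in aged EpdSC and 1.7 CPM in aged HFSC. At 8706 bases both populations were open, with 6.63 CPM in aged EpdSC and 6.4 CPM in young EpdSC, against 4.61 CPM in aged HFSC and 10.2 CPM in young HFSC. These windows were chosen after their values were seen.

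The 10x libraries place the same genes in single cells. The aged library held 4468 cells with a median of 2271 unique molecular identifiers (UMIs) and the young library 4035 cells with a median of 3919, and 33 cell barcodes occurred in both. The cells fell into 14 clusters, made without any Klk or Spink gene, of which 6 could be named from markers. The named clusters were interfollicular basal-like (102 aged and 849 young cells), suprabasal-like (270 and 451), upper hair follicle-like (161 and 435), bulge-like (221 and 289), cycling-like (203 and 131) and sebaceous gland-like (87 and 43). The interfollicular basal-like name was the weakest. Its markers averaged 0.56 on the log2 scale over all other cells, and only Ly6a was among its 10 leading genes. One unnamed cluster led by Thy1 and Serpinb7 held 1516 aged and 44 young cells, and with 1 library per age such a cluster may be that library and not a type. It also matched the interfollicular basal marker list best, without meeting the rule for a name. Levels are again CPM, here the UMIs of a gene in 1000000 UMIs of all cells of a cluster and library, with exact Poisson intervals that cover counting error only, and there is no test between ages.

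Klk7 was concentrated in upper hair follicle-like cells. These cells, led by Krt79, Cst6, Sprr1a and Krt17, had 128 CPM in the aged library (interval 93.5 to 171) and 143 in the young library (127 to 162). They held 45 of 50 aged Klk7 UMIs (90%) and 263 of 294 young ones (89.5%), while making up 3.6% of aged and 10.8% of young cells. Bulge-like cells, which the HFSC sort targets, had 0 Klk7 UMIs in both libraries, which, taking 3 UMIs as the most that a count of 0 allows, leaves up to 8.45 CPM in the aged library and 3.87 in the young one. The gene was unevenly spread even among the cells that had it. In the young library 96 cells carried 3.06 UMIs on average and as many as 16, and 10 cells held 39.8% of all its UMIs.

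Klk5 shared this location, with 62.6 CPM in aged upper follicle-like cells (39.3 to 94.8) and 40.9 in young ones (32.2 to 51.2). These cells held 71% of aged and 64.1% of young Klk5 UMIs. In suprabasal-like cells Klk5 was at 1.86 CPM in the aged and 6.95 in the young library. Of cells with a Klk5 UMI, 6 of 22 aged (27.3%) and 29 of 85 young ones (34.1%) also had a Klk7 UMI. Klk7 was found in 9.32% of all aged and 15.9% of all young upper follicle-like cells, and in 0 of 221 aged and 0 of 289 young bulge-like cells, whose median was 1425 and 2481 UMIs, against 1913 and 3875 in upper follicle-like cells. The counts of shared cells were taken over all clusters and without matching for depth, and the part of cluster and depth in them was not tested. Klk6 had 5 UMIs in each library, of which 4 were in upper follicle-like cells in each.

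Spink5 was highest in the same cluster and next in suprabasal-like cells. It had 125 CPM in aged upper follicle-like cells (91 to 168) and 194 in young ones (174 to 215), and 60.4 in aged suprabasal-like cells (46.6 to 77) and 83.4 in young ones (72.6 to 95.3). Bulge-like cells had 11.3 and 11.6 CPM, and interfollicular basal-like cells 11.1 and 7.75. Of cells with a Klk7 UMI, 8 of 20 in the aged library and 40 of 96 in the young library also had a Spink5 UMI, which is 40% and 41.7%. Spink5 was found in 16.8% of all aged and 36.6% of all young upper follicle-like cells, so in the young library the share was close to that of the cluster as a whole. Cells were not matched for depth in these counts.

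Klk11 lay elsewhere. It had 63 CPM in aged interfollicular basal-like cells (36.7 to 101) and 30.7 in young ones (25.3 to 37), and 39.9 in aged suprabasal-like cells and 32.8 in young ones. Upper follicle-like cells had only 5.7 in the aged library (0.69 to 20.6) and 7.63 in the young one (4.17 to 12.8), and bulge-like cells 2.82 and 3.87. Klk10 was at 11.1 CPM in aged and 15.2 in young interfollicular basal-like cells, at 1.86 and 4.63 in suprabasal-like cells, and at 14.2 and 7.09 in upper follicle-like cells, with intervals of 4.62 to 33.2 and 3.77 to 12.1 in the last. The aged Thy1 and Serpinb7 cluster had 34.5 CPM of Klk11 (28.8 to 41) and 18.6 of Klk10 (14.5 to 23.5). No aged cell with a Klk5 or Klk7 UMI had a Klk11 UMI, among 22 and 20 cells, and 4 of 85 (4.71%) and 7 of 96 (7.29%) such young cells did. Klk11 was found in 6.18% of all aged and 7.76% of all young cells, so these few cells show no separation of the genes cell by cell.

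Klk8 bridged both patterns. It had 48.4 CPM in aged upper follicle-like cells (28.2 to 77.5) and 48.5 in young ones (39 to 59.7), 14.9 and 32.4 in suprabasal-like cells, and 22.2 and 27.1 in interfollicular basal-like cells. Klk9 had 23 aged and 17 young UMIs in all and none in upper follicle-like cells, which by the same limit of 3 UMIs leaves up to 8.54 CPM in the aged and 1.64 in the young library. Klk13 and Klk14 had 0 UMIs in the aged library and 1 each in the young library. The map of levels by cluster shows the 2 locations.

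**Figure D4:**
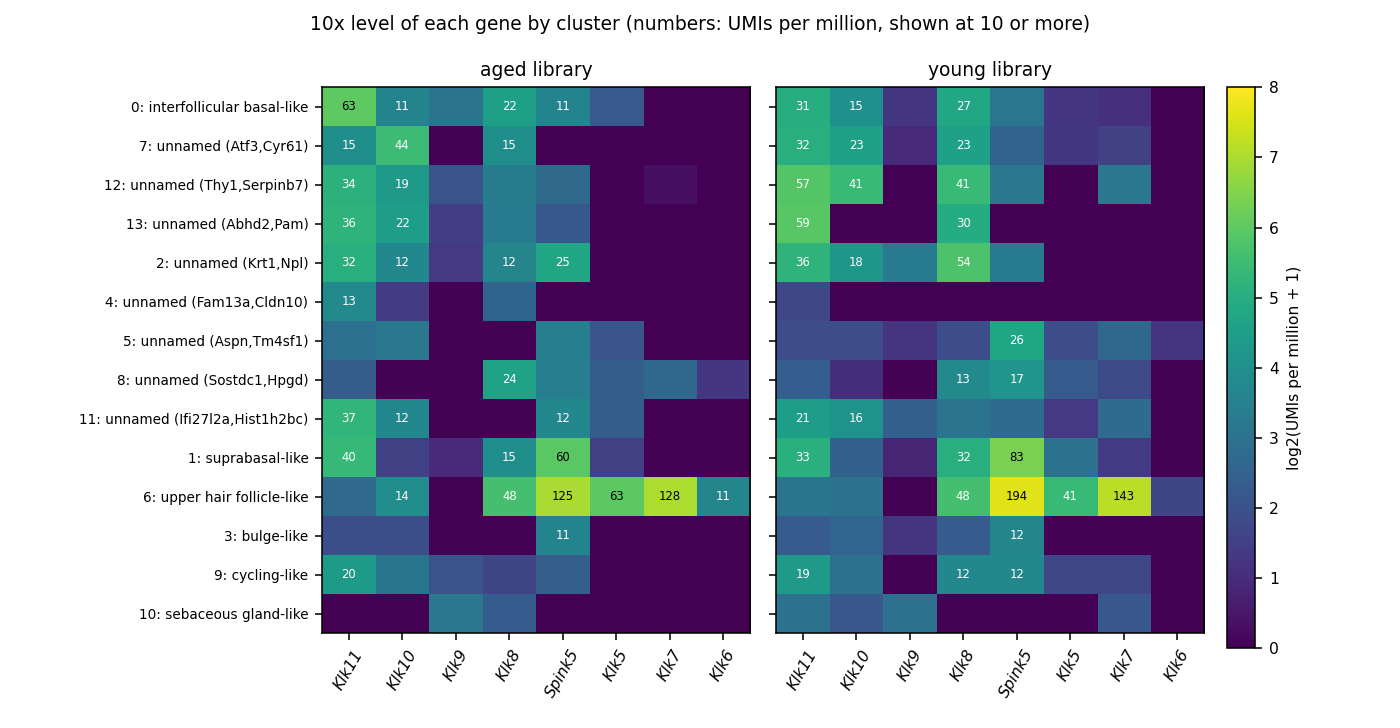
Level of 8 genes in each 10x cluster (rows) of the aged library (left) and the young library (right), as log2 of UMIs per 1000000 UMIs (CPM) plus 1; printed numbers are CPM of 10 or more, and unnamed clusters carry their 2 leading genes. Klk7 and Klk5 are bright in the upper hair follicle-like row, at 128 and 62.6 in the aged and 143 and 40.9 in the young library, whereas Klk11 is bright in the basal and suprabasal-like rows.

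Over all cells, Klk7 was lower in the aged library, at 4.48 CPM against 17.3 in the young library, and so was Spink5, at 17.3 against 41.4. Within upper hair follicle-like cells the Klk7 intervals of the libraries overlapped, while Spink5 was at 125 in aged and 194 in young cells, with intervals that did not at full depth. The share of upper follicle-like cells was 3.6% in the aged and 10.8% in the young library. Which part of the difference over all cells comes from the share and which from the level was not tested, and with 1 library per age neither difference has a replicate check. When each cell was reduced to 1500 UMIs, which left out 800 aged and 105 young cells, upper follicle-like cells had 88.5 CPM of Klk7 in the aged and 114 in the young library, and 118 (72.1 to 182) and 145 (117 to 178) for Spink5. The Spink5 intervals overlapped at this depth. They rested on 20 aged and 94 young UMIs, against 44 and 356 at full depth, and fewer UMIs widen the intervals. The part of depth in the Spink5 difference was not tested.

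Pathway genes were then read in the same cells. Cst6 was at 10000 CPM in aged and 7660 in young upper follicle-like cells, against at most 345 in any other named cluster. Tmprss4 was highest in suprabasal-like cells, at 168 in the aged and 198 in the young library, and next in upper follicle-like cells, at 111 and 99.2. Dsg1a had the same order, with 746 and 604 in suprabasal-like cells and 327 and 389 in upper follicle-like cells. Dsg3 was highest in bulge-like cells, at 70.4 and 76.1. Prss8 was at 14.2 and 25.1 in upper follicle-like cells and St14, which encodes matriptase, at 14.2 and 22.9. The highest level in any other named cluster was 36.4 and 21.1 for Prss8 and 33.4 and 20.2 for St14.

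Upper hair follicle-like cells were split by whether they carried a Klk5 or Klk7 UMI, a split chosen after the cluster levels were seen. The 22 aged and 91 young cells with such a UMI had a median of 3221 and 4704 UMIs, against 1774 and 3648 in the 139 aged and 344 young cells without one, so detection went with depth and the levels below are CPM. Cst6 was at 18900 in aged and 19000 in young cells with a UMI, against 7900 and 3650 in cells without. Krt79, the keratin of the upper follicle, was at 14700 and 11200, against 4430 and 5370, and Krt17 at 22100 and 15700, against 4700 and 5290. Ivl, which encodes the cornified envelope protein involucrin, was at 132 and 127, against 31.8 and 41.3, with intervals that overlapped in the aged library. Klk8 was at 132 and 112, against 28.3 and 25.8. The basal keratins were lower in cells with a UMI, Krt5 at 395 and 643, against 1480 and 1370, and Krt14 at 4280 and 4430, against 7910 and 6110. Markers of epidermal differentiation did not move as one. Krt1, a suprabasal keratin, was also lower, at 409 and 242, against 927 and 405. Its partner Krt10 was at 2340 and 2740, against 2190 and 2390, with intervals that overlapped in the aged library, and Casp14 was at 0 and 12.5, against 24.8 and 17, with overlapping intervals in both. The plot of the split shows the intervals.

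**Figure D5:**
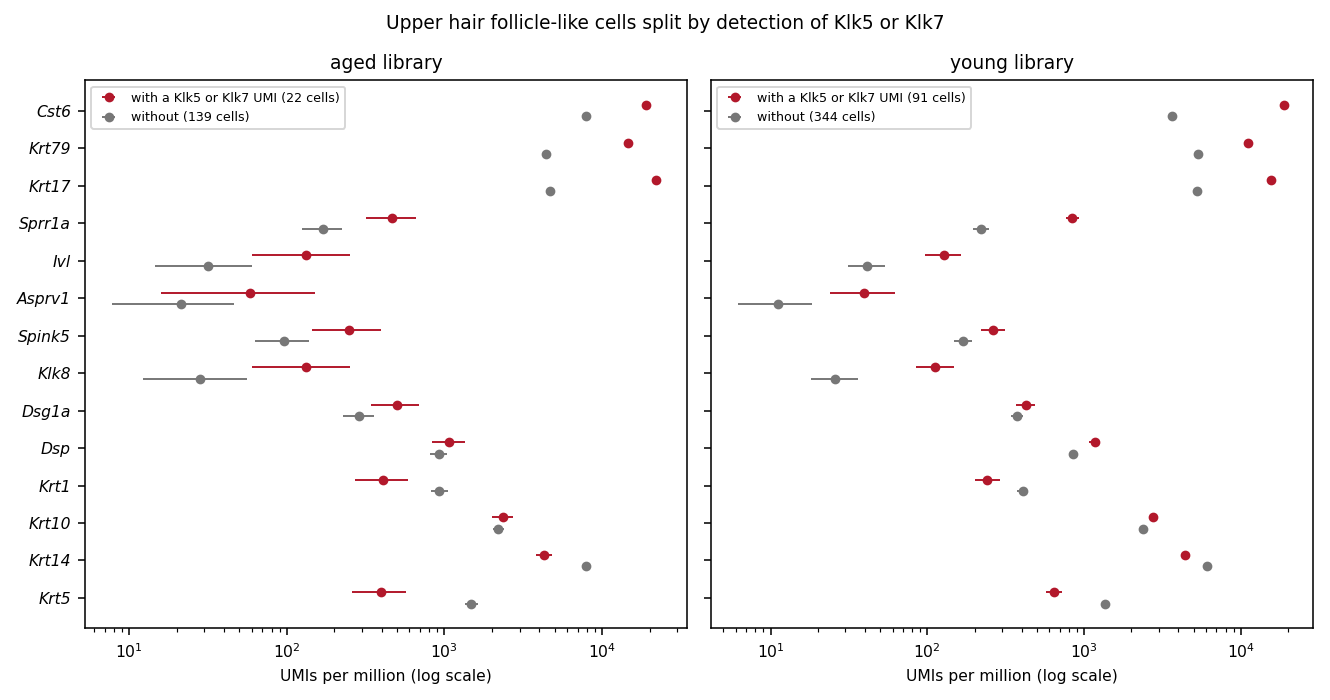
Levels in UMIs per 1000000 UMIs (CPM, log axis) with exact Poisson intervals in upper hair follicle-like cells with a Klk5 or Klk7 UMI (red) and without one (grey), in the aged library (left, 22 and 139 cells) and the young library (right, 91 and 344 cells). Cst6, Krt79, Krt17, Sprr1a, Ivl and Klk8 are higher and Krt1, Krt14 and Krt5 are lower in the cells with a UMI in both libraries. The intervals of Ivl, Krt10, Asprv1, Dsg1a and Dsp overlap in the aged library, and those of Dsg1a overlap in the young library.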

How the data were processed

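RNA-seq read counts per gene, ATAC-seq counts per 500-base window in overlapping steps, and 10x UMI counts for 737280 barcodes per library were used as the authors deposited them, none normalised. The submitters' processing notes name STAR, Bowtie, Cell Ranger and the build mm10, without versions. The sources used here do not state the strand setting, duplicate removal or read shifting, and so antisense reads may be counted for a gene.

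RNA counts were tested with edgeR 4.0.16 (R 4.3.3) in 1 quasi-likelihood fit of all 8 libraries, with TMM scaling and filterByExpr (21464 of 47729 genes kept), with calls made below 0.05 after Benjamini-Hochberg adjustment. All adjusted p-values are over all genes tested. DESeq2 1.42.0, other filters and scalings, a replicate block and each library left out were alternatives. ATAC ratios used non-overlapping windows, a pseudocount of 0.5, a minimum of 20 counts per pair and a 4-fold threshold. Barcodes were kept with a UMI total of 682 or more (aged) or 1050 or more (young), set from the UMI totals of the top 4000 barcodes of each library. They also needed 500 or more genes and up to 10% mitochondrial UMIs. These filters together left 4469 and 4038 beside the 4000 captured cells in the labels. After called doublets were removed, the cells were clustered with scanpy 1.11.5 at resolution 1. The doublet caller marked 1 aged and 3 young cells, too few to have worked, so doublets remain. The RNA test was tried on simulated counts, and the ATAC ratios and intervals and the 10x intervals on simulated draws. The clustering and naming of cells were not tested in this way. The ATAC and 10x intervals cover counting error only.

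All 10 members are named. From each pathway list, up to 4 called genes with the smallest p were to be named per comparison, or up to 2 where none was called. Prss8, Dsg3, Ctsh, the pathway genes read in single cells, the genes and the split of upper follicle cells, the Spink5 end, the ATAC windows named and the CpG capitals were chosen after values were seen, as was the rule that a named cluster needs a marker among its top 10 genes. The members and lists were chosen with earlier results of these data known.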

Additional observations from a re-analysis of the deposited data

How the results depend on the processing

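The EpdSC against HFSC counts of called members stayed within 1.5 times of 5 under all other tools, filters and scalings, and ranged from 3 to 5 in aged mice and from 4 to 6 in young mice when 1 library was left out. For age in HFSC, DESeq2 called 3 members and so did edgeR without a filter on low counts, while a fit of the 4 HFSC libraries alone called 0. For the difference between the age effects, DESeq2 called 1 and edgeR without a filter called 1, and the count ranged from 0 to 1 with 1 library left out. For age in EpdSC the count was 0 throughout. No label says that a replicate number marks shared mice or a shared day, and the numbers were not taken as pairs. Deviations of libraries with the same number correlated between -0.044 and 0.26 over the 6 pairs of groups, over 0.1 in 5 of them, and most between EpdSC and HFSC of an age (0.248 in aged and 0.26 in young mice), so that shared mice cannot be told from these data. The fit with a replicate block moved 1 call, that of Klk5 in young mice (adjusted p = 0.0365). The cause of these shifts was not tested.

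Signs turned only where 1 library was left out and only for values that were not called. These ranges of log2 values were, for EpdSC against HFSC in aged mice, -0.5 to 0.26 for Klk13, -1.22 to 0.56 for Klk6 and -0.63 to 0.15 for Klk7. In young mice they were -0.6 to 2.16 for Klk13, -2.24 to 4.31 for Klk6 and -0.59 to 1.41 for Klk7. For age in EpdSC they were -0.2 to 0.91 for Klk8, -0.22 to 0.25 for Klk9 and -0.23 to 0.3 for Spink5. For age in HFSC they were -0.5 to 0.92 for Klk10, -1.17 to 1.63 for Klk13 and -1.84 to 0.7 for Klk9. For the difference they were -0.04 to 1.39 for Klk10, -2.35 to 0.45 for Klk13, -4.87 to 1.64 for Klk6, -1.61 to 0.42 for Klk7, -0.7 to 1.83 for Klk9 and -0.56 to 0 for Spink5.

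The count of member start sites past the ATAC threshold in young mice moved to 9 at 2-fold, and in aged mice to 3 with ratios centred on the median of all promoters, an alternative chosen after seeing the data. In the aged 10x library, 5 members of 20 or more UMIs had their highest level of any named cluster in upper follicle-like cells, and 2 after thinning to 1500 UMIs, which leaves fewer UMIs. No cluster was named interfollicular basal-like at resolution 0.5 or 1.5, so the levels given for that cluster have no check there. Low counts of Klk6, Klk13 and Klk14 and single ATAC and 10x libraries limit what can be read.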
